A study of Homo sapiens with 6 samples.

Results

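Protein kinase A (PKA) is held inactive by a pair of regulatory subunits that bind its catalytic subunits, and cyclic AMP (cAMP) frees the catalytic subunits by binding the regulatory ones. A-kinase anchoring proteins (AKAPs) carry a short helix that docks the regulatory dimer, and so place the kinase at a membrane, organelle or scaffold together with phosphatases, phosphodiesterases and substrates. AKAP12, also called gravin or SSeCKS, is such a scaffold at the plasma membrane and cytoskeleton, binds protein kinase C as well as PKA, and is known as a gene often silenced in tumours.

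The genes described are AKAP12, 7 other AKAPs (AKAP1, AKAP8, AKAP8L, AKAP9, AKAP10, AKAP11 and AKAP13) and the PKA regulatory subunit genes PRKAR1A and PRKAR2A. They are 10 of the 12793 rows of the deposited expression table, taken by gene symbol. RNA was sequenced from HCT15, a colorectal cancer line established from human tissue, in 3 libraries with a control guide (labelled WT) and 3 libraries labelled RBM15 knockout made by CRISPR/Cas9. RBM15 guides the enzymes that place m6A on RNA, and the study addressed its role within the tumour cells. The labels do not say whether the knockout cells were 1 clone or a pool, or whether libraries were grown separately, so every p-value here reflects variation among the libraries alone, possibly technical.

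Values are FPKM, fragments scaled by transcript length and library total, so levels of different genes can be set side by side. Column sums lay between 402288 and 415057 FPKM, and read depth could not be recovered from the values. Differences between groups are knockout minus control on the log2(FPKM + 1) scale, with the standard error (SE) of a limma fit over the 11451 genes that averaged 1 FPKM or more. A gene is said to have risen or fallen where its adjusted p in that fit was at most 0.05. RBM15 itself stood at 5.79 ± 0.242 FPKM (SD, n = 3) in the controls and was higher, at 17.9 ± 0.615 FPKM, in the knockout-labelled libraries (exact 2-sided permutation p = 0.1, the smallest that 3 against 3 allows), so the directions given here follow the labels. Of 10 markers of colorectal epithelium 7 had a row, among them EPCAM with control and knockout-labelled means of 528 ± 5.3 and 415 ± 3.68 FPKM.

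The set was selected on the FPKM difference between these same groups, around the higher AKAP12 value, so the values of all 10 genes, and whether they passed the limma threshold, are given as a description and support nothing. The other 9 genes belong to the AKAP family or encode the subunits that AKAPs bind. AKAP12 (ENSG00000131016) spans 151239999 to 151358557 of chromosome 6 (plus strand, GRCh38). GENCODE 29 gives it 4 coding transcripts with 4 different starts. All 4 share 1 coding exon of 5027 nt, which holds between 94.0% and 99.9% of their coding bases, so a gene-level value does not tell which start was used. RefSeq lists 3 starts for the gene, and the 100 bases before each are shown because the gene-level value pools transcripts from all of them. Capitals mark CACGTG, a palindromic E-box, found 93, 17 and 11 bases before the 3 RefSeq starts. In GENCODE the last 20 bases of the third stretch are exon, so there the third E-box lies within an exon. The stretches are chr6:151239867-151239966, chr6:151325431-151325530 and chr6:151341606-151341705 on the plus strand of GRCh38.p14, printed 5′ to 3′.
AKAP12 start 1: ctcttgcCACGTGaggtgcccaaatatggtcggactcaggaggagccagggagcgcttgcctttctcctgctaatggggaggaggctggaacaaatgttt
AKAP12 start 2: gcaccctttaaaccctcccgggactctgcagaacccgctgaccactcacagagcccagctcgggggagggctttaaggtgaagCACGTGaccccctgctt
AKAP12 start 3: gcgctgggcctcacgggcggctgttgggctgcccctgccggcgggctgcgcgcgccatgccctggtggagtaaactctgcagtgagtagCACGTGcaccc

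The E-box CACGTG was searched after the sequences were seen, on both strands, in RefSeq windows of 250 bases before to 50 after each start. All 3 AKAP12 windows held it, as did 7.23% of 34943 windows over all genes. Over the genes described it was in 6 of 19 windows, the other 3 belonging to AKAP1, AKAP10 and PRKAR1A. For the cAMP response element (CRE), the site bound by CREB downstream of PKA, the letters TGACGTCA and the shorter core TGACG, which lies within it, were searched the same way. No AKAP12 window (0 of 3) held the core, which 24.5% of all windows held. The core was in 11 of the 19 windows of the genes described, over 5 genes. Overlapping windows of AKAP1 and of PRKAR1A read the same core, so the 11 windows are not 11 separate sites. Of the 10 genes, 9 had promoter rows, 19 windows in all, and only PRKAR1A held the full CRE, in 2 overlapping windows that read the same site (1.84% of all windows held it). That site begins 49 bases before 1 of the PRKAR1A starts and at base +3 from another. The stretch printed is chr17:68512370-68512399 on the plus strand, with the CRE in capitals.
PRKAR1A CRE: gcgaggcgcatTGACGTCAgtagccgaacg

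AKAP12 RNA measured 4.78, 4.94 and 5.86 FPKM with the control guide and 15.6, 15.7 and 15.4 FPKM in the knockout-labelled libraries, in the order of library numbers. Every knockout-labelled library was above every control library, and control library 3 was the highest of the controls. Mean levels were 5.19 ± 0.582 and 15.6 ± 0.128 FPKM, which differ 3.0-fold, and the difference was 1.42 (SE 0.071). It was number 18 among the increases of all 11451 tested genes. Leaving out any 1 library kept the difference between 1.375 and 1.498.

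In the controls AKAP12 was number 9 of the 10 genes by level, below all but AKAP13, and in the knockout-labelled libraries it was number 4. It made up 5.29% ± 0.587 of the summed FPKM of the 8 AKAPs in the controls and 13.7% ± 0.326 in the knockout-labelled libraries. The summed level went from 98.1 ± 0.722 to 113 ± 1.82 FPKM, and AKAP12 made up 68.1% of that gain. Without AKAP12 the sum of the other 7 was 92.9 ± 0.85 FPKM with the control guide and 97.8 ± 1.93 FPKM in the knockout-labelled libraries.

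**Figure D1:**
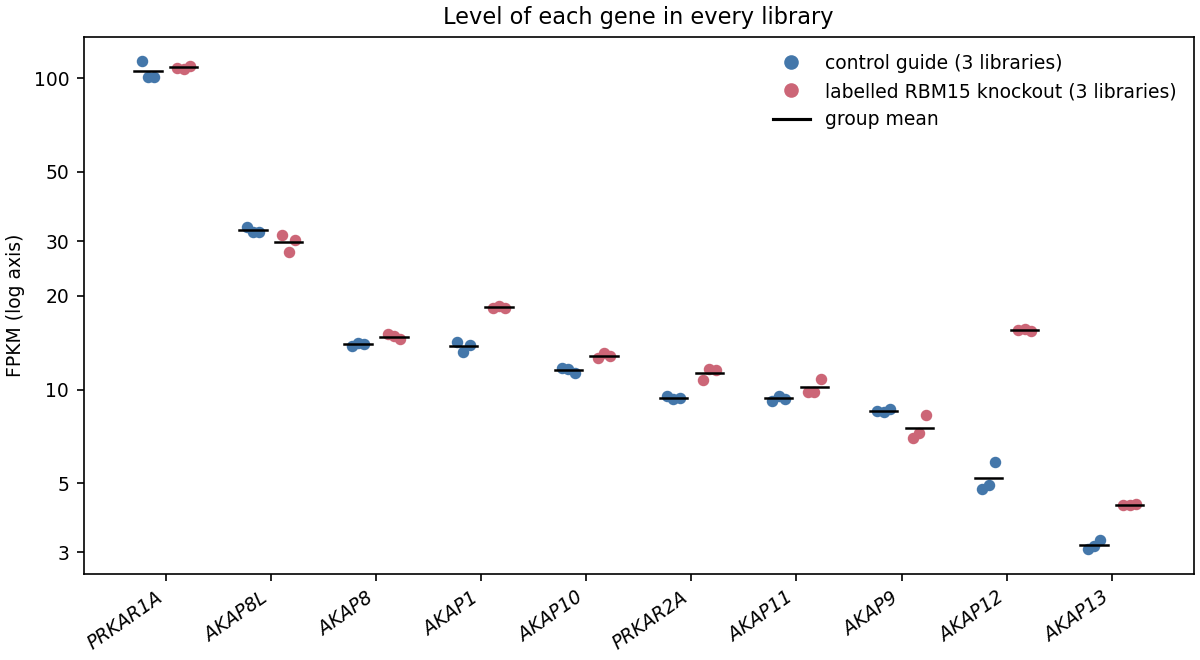
FPKM of the 10 genes in each library on a log axis, ordered by the control mean, with 3 control and 3 knockout-labelled libraries per gene and bars at the group means. AKAP12 moves from about 5.19 to 15.6 FPKM, past AKAP9, AKAP11, PRKAR2A, AKAP10 and AKAP8, while PRKAR1A stays above 100 FPKM in every library.

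Of the 10 genes, 5 rose (AKAP12, AKAP1, AKAP13, AKAP10 and PRKAR2A) and 0 fell, where 25.3% of all tested genes rose and 29.2% fell. Over all genes 2896 rose and 3349 fell, and this order turned to 3497 and 2719 with the trend over GC content and length removed, 3367 and 2894 under quantile normalization, 3239 and 3044 under median centring, and 3144 and 3093 on the TPM scale. Their median difference was 0.12, and that of all tested genes was -0.018. The values of the groups did not overlap for 9 of the 10, against 63% of all tested genes. Of these 9, 7 were higher (29.6% of all tested genes) and 2 lower (33.4%). Apart from AKAP12 no difference was larger than 0.39 in size. Because the genes were chosen with this comparison in view, nothing is read from these shares.

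AKAP1, which anchors PKA and mRNA at the outer mitochondrial membrane, lies on chromosome 17 (57085092 to 57121349). Its control values were 14.2, 13.2 and 13.9 FPKM, and its knockout-labelled values 18.3, 18.6 and 18.3 FPKM. The groups were well apart, and the difference of 0.39 (SE 0.041) was the next in size after AKAP12. AKAP10, a mitochondrial anchor that binds both types of regulatory subunit (chromosome 17, 19904302 to 19978343), went from 11.7, 11.6 and 11.3 FPKM to 12.6, 13.1 and 12.8 FPKM. Its difference of 0.14 (SE 0.04) did not pass without control library 2 (0.143), control library 3 (0.124) or knockout-labelled library 2 (0.124), nor with the replicate number as a block.

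AKAP13 (chromosome 15, 85380571 to 85749358), a scaffold that is also a guanine nucleotide exchange factor for the GTPase RhoA, was the lowest of the 10 genes in both groups. Control libraries gave 3.07, 3.14 and 3.27 FPKM, and knockout-labelled libraries 4.25, 4.24 and 4.27 FPKM. The latter had an SD of only 0.0167 FPKM and lay above all controls, with a difference of 0.34 (SE 0.056). AKAP11 (chromosome 13, 42272153 to 42323267), an anchor that also binds protein phosphatase 1 and GSK3, gave 9.2, 9.55 and 9.34 FPKM with the control guide, against 9.82, 9.85 and 10.8 FPKM. Its difference of 0.11 (SE 0.051) did not pass, and knockout-labelled library 3 was the highest of the 6. The AKAP11 difference passed under quantile normalization (0.14), but was 0.028 once GC and length were corrected for and 0.064 without knockout-labelled library 3.

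AKAP9 (chromosome 7, 91940867 to 92110673) encodes the large anchor of the centrosome and Golgi apparatus. Control values were 8.53, 8.47 and 8.69 FPKM. Knockout-labelled values were 6.98, 7.26 and 8.28 FPKM, so all 3 were lower but library 3 came close to the controls. The difference of -0.17 (SE 0.065) did not pass, but it passed at -0.24 without knockout-labelled library 3, and at -0.27 once the trend over GC content and length was removed. AKAP9 and AKAP11 had the lowest GC content of the 10 genes in their longest transcripts, 38.2% and 37.3%, against a median of 48.6% over all rows matched to GENCODE.

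AKAP8 and AKAP8L encode nuclear proteins associated with chromatin and RNA processing. They are counted as AKAPs by gene name, and whether their products bind PKA was not measured here. They are paralogs that lie head to tail on the minus strand of chromosome 19, with 249 bp between them (AKAP8 at 15353385 to 15379798 and AKAP8L at 15380048 to 15419141). AKAP8L had the most RNA of the genes named AKAP in both groups. Its control values were 33.3, 32.2 and 32.0 FPKM and its knockout-labelled values 31.4, 27.7 and 30.3 FPKM. AKAP8 had control values of 13.8, 14.2 and 14.0 FPKM and knockout-labelled values of 15.04, 14.9 and 14.5 FPKM. So the AKAP8L values were all lower and the AKAP8 values all higher in the knockout-labelled libraries, by -0.12 (SE 0.051) and 0.075 (SE 0.038), and neither passed. Without knockout-labelled library 1 the AKAP8L difference was -0.16 and passed, and without library 2 of that group it was -0.071. AKAP8L has the highest GC content of the 10 (62.1%), and its difference turned to 0.065 once that trend was removed, while that of AKAP8 became 0.11 and passed. The ratio of AKAP8 to AKAP8L FPKM was 0.431 ± 0.0137 in the controls and 0.498 ± 0.0337 in the knockout-labelled libraries.

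PRKAR1A (chromosome 17, 68511780 to 68551319), the type I alpha regulatory subunit gene, mutated in Carney complex, was by far the most abundant of the 10 genes. Its control values were 114, 101 and 101 FPKM and its knockout-labelled values 108, 107 and 109.7 FPKM, so the groups overlapped through control library 1. The PRKAR1A difference was 0.044 (SE 0.049) and did not pass, but it was 0.099 and passed without control library 1, and was 0.018 and 0.015 without control library 2 or 3. PRKAR2A (chromosome 3, 48744597 to 48847846), the type II alpha subunit gene, whose protein most AKAPs bind with high affinity, gave 9.53, 9.31 and 9.42 FPKM with the control guide and 10.7, 11.6 and 11.5 FPKM in knockout-labelled libraries. All of the latter were above the controls, with a difference of 0.24 (SE 0.047).

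The ratio of PRKAR1A to PRKAR2A FPKM was 11.9, 10.9 and 10.7 in the controls and 10.1, 9.2 and 9.52 in the knockout-labelled libraries. Each knockout-labelled ratio was below each control ratio, with means of 9.61 ± 0.452 against 11.2 ± 0.65. In the order of levels most neighbours had ranges apart, but AKAP8 and AKAP1 overlapped in the controls, and PRKAR2A and AKAP11 overlapped in both groups.

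**Figure D2:**
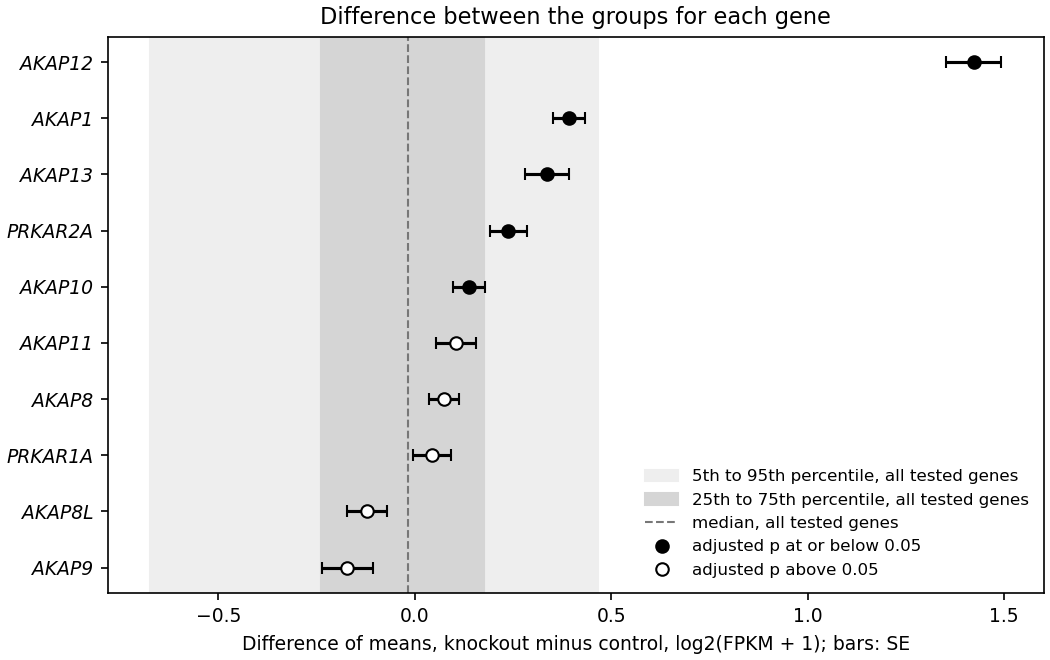
Difference between groups on the log2(FPKM + 1) scale with its SE for each of the 10 genes, over grey bands that mark the 5th to 95th and 25th to 75th percentiles of all 11451 tested genes. AKAP12 at 1.42 lies outside the wider band (-0.67 to 0.47), and the other 9 lie inside it.

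The 10 genes lie on 7 chromosomes, with AKAP1, AKAP10 and PRKAR1A all on chromosome 17. Their longest transcripts had a median length of 5399 nt, against 3670 nt over all rows matched to GENCODE, and AKAP13 was the longest at 13215 nt. No member shared exon bases with another row of the table (0 of 10). In GENCODE 6 of them overlap exons of another gene without a row here, such as PRKAR2A with 275 bp of the antisense gene PRKAR2A-AS1, and strand use in the counting is not given here. AKAP12 overlaps no other exon.

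Within 1 Mb of AKAP12, 5 other genes were tested. PLEKHG1, which ends 396333 bp before AKAP12, fell from 2.03 ± 0.0865 to 1.02 ± 0.281 FPKM (difference -0.60, SE 0.11, limma adjusted p = 0.00389). ZBTB2, the closest at 5559 bp after AKAP12, stood at 12.2 ± 0.526 and 13.1 ± 0.0631 FPKM (difference 0.097, limma adjusted p = 0.106). MTHFD1L, RMND1 and ARMT1 had differences of -0.054, -0.23 and 0.049, and none of the 3 passed. ZBTB2 passed under median centring (0.12) and quantile normalization (0.12), and RMND1 with a filter at 5 FPKM (-0.23), with the replicate block (-0.23) and without control library 3 (-0.32). CCDC170, at 0.812 ± 0.147 and 0.542 ± 0.0582 FPKM, was below the filter and not tested.

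**Figure D3:**
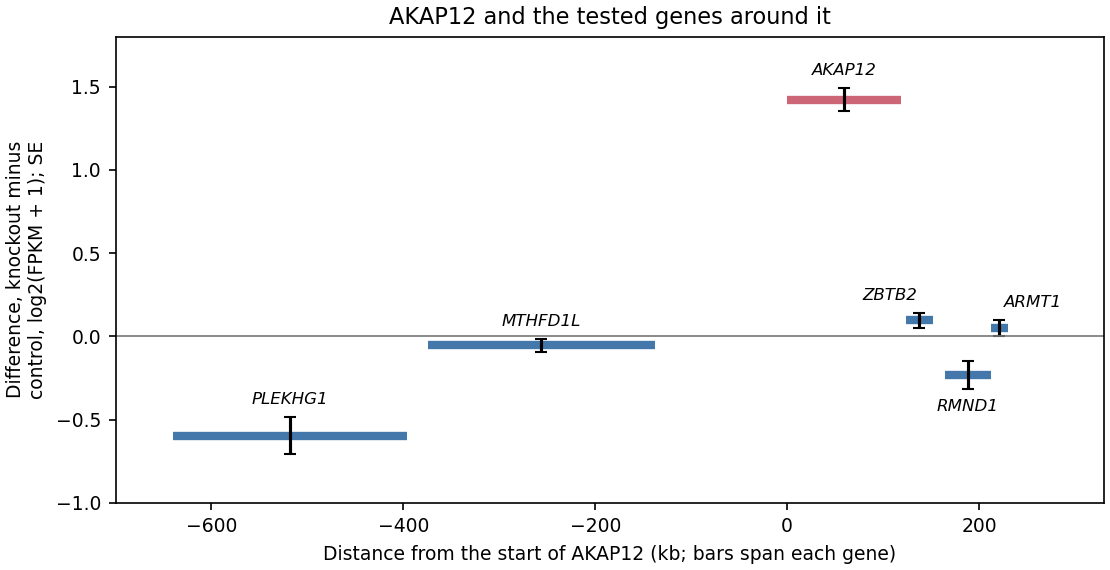
Difference between groups with its SE for AKAP12 and the 5 tested genes within 1 Mb, placed by distance in kb from the start of AKAP12, with horizontal bars spanning each gene. AKAP12 stands at 1.42, and the genes around it lie between -0.60 and 0.097.

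The tested genes whose values over the 6 libraries lay nearest to those of AKAP12, by Euclidean distance of log2(FPKM + 1) after subtracting the control mean, began with RBM15 at 0.287. NCR3LG1, which encodes a ligand of a natural killer cell receptor, followed at 0.389, going from 1.95 ± 0.179 to 5.83 ± 0.366 FPKM. A locus named by StringTie without a gene symbol came next at 0.392. The heat-inducible chaperone genes HSPA1A and HSPA1B, near-identical copies whose reads cannot be divided with certainty, were at 0.448 and 0.464. With 2 groups and the control mean subtracted, this distance mostly follows the difference between groups, on which the set was selected. The 5 had differences between 1.21 (NCR3LG1) and 1.67 (HSPA1B), so no link to AKAP12 is read from their nearness.

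AKAP12 is also expressed by fibroblasts and endothelial cells. Of 8 fibroblast markers 1 had a row (COL1A1, summed level 0.917 to 1.41 FPKM with the control guide and 0.835 to 1.41 FPKM in the knockout-labelled libraries), and of 5 endothelial markers 0 had one. Of 6 leukocyte markers 1 had a row, the lysosomal glycoprotein gene CD68, at 2.66 to 3.08 FPKM with the control guide and 6.03 to 7.29 FPKM in the knockout-labelled libraries. Of the 7 epithelial markers tested 1 rose and 5 fell, where 25.3% of all tested genes rose and 29.2% fell. Their summed level was 3803 to 3896 FPKM in control and 3481 to 3621 FPKM in knockout-labelled libraries. The intestinal transcription factor gene CDX2 (20.9 ± 0.138 to 9.52 ± 0.254 FPKM) and the brush border gene VIL1 (16.98 ± 0.168 to 3.87 ± 0.222 FPKM) were among those that fell. KRT8 was the 1 that rose (1292 ± 19.9 to 1391 ± 55.5 FPKM). CDH1, at 122 ± 1.14 and 118 ± 2.27 FPKM, did not pass. All libraries are from the HCT15 line, so these markers describe RNA of that line and not a mixed tissue. Their part in the AKAP12 result was not tested. Bulk RNA does not tell fewer cells with a transcript from less of it per cell.

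Other genes of cAMP signalling were taken from 9 lists, with 80 genes tested once each. Of these 17 rose and 22 fell, 39 in all, against 54.5% of all tested genes. With the GC and length trend removed 23 rose and 19 fell, and under quantile normalization 19 rose and 19 fell. PDE4D, CREM and SIK1 stand in more than 1 list. The counts below are to be read against the shares of 25.3% and 29.2% given above.

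Further anchoring proteins rose more often than they fell, 6 against 1 of 12 tested, with a median difference of 0.22. EZR encodes ezrin, which links the membrane to actin and anchors PKA, and it rose from 146 ± 2.87 to 229 ± 2.92 FPKM (difference 0.65, limma adjusted p = 8.09e-06). PALM2AKAP2 rose from 4.83 ± 0.223 to 7.35 ± 0.244 FPKM and NF2, which encodes merlin, from 12.9 ± 0.723 to 16.4 ± 0.301 FPKM. AKAP5, an anchor known from synapses, had overlapping groups, with control values of 0.812, 1.75 and 0.634 FPKM and knockout-labelled values of 2.25, 1.59 and 2.84 FPKM. Its call (difference 0.66, limma adjusted p = 0.0403) was lost without control library 1 or 3 or knockout-labelled library 1 or 3, and with the replicate block. The Golgi protein gene ACBD3 rose by 0.21 on the log2 scale. AKAP17A, a gene of the pseudoautosomal region, has 2 rows whose reads cannot be divided with certainty. The row placed on the X chromosome rose by 0.23, without a call when control library 3 was left out, and by 0.38 with the GC and length trend removed. The other row, which matched no position in GENCODE, rose by 0.37 (limma adjusted p = 0.00162). AKAP7 fell from 4.35 ± 0.541 to 3.43 ± 0.239 FPKM, a call lost under 8 of 14 alternatives.

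Among the other PKA subunit and inhibitor genes, 1 rose and 2 fell of 8 tested (median difference -0.13). PRKACB, the catalytic beta subunit gene, had control values of 5.79, 5.95 and 6.58 FPKM and knockout-labelled values of 3.76, 3.86 and 4.05 FPKM. It fell by 0.54 on the log2 scale (limma adjusted p = 0.00051). PRKACA, the main catalytic subunit gene, stood at 35.2 ± 1.27 and 37.6 ± 0.282 FPKM and did not pass (difference 0.095, limma adjusted p = 0.0615). The PRKACA difference passed with the GC and length trend removed (0.17), on the TPM scale (0.12), under median centring (0.12) and without control library 2 (0.12). PRKAR1B, the type I beta regulatory subunit gene, rose from 13.9 ± 0.403 to 18.02 ± 0.486 FPKM (difference 0.35, limma adjusted p = 0.000509), and its difference was 0.55 once GC and length were corrected for. PKIG, which encodes a peptide inhibitor of the free catalytic subunit, fell from 12.9 ± 1.54 to 8.34 ± 0.591 FPKM (difference -0.57, limma adjusted p = 0.00188).

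The summed FPKM of PRKACA and PRKACB was 41.3 ± 1.37 in the controls and 41.5 ± 0.399 in the knockout-labelled libraries. PRKACB made up 14.8% ± 0.934 of that sum in the controls and 9.37% ± 0.282 in the knockout-labelled libraries. The sum of the 4 regulatory subunit genes was 133 ± 7.52 and 142 ± 1.98 FPKM, with overlapping ranges, and PRKAR1A made up 79.1% ± 0.905 and 76.6% ± 0.552 of it. The ratio of regulatory to catalytic FPKM was 3.56, 3.03 and 3.09 in the controls and 3.39, 3.41 and 3.42 in the knockout-labelled libraries, so the groups overlapped.

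**Figure D4:**
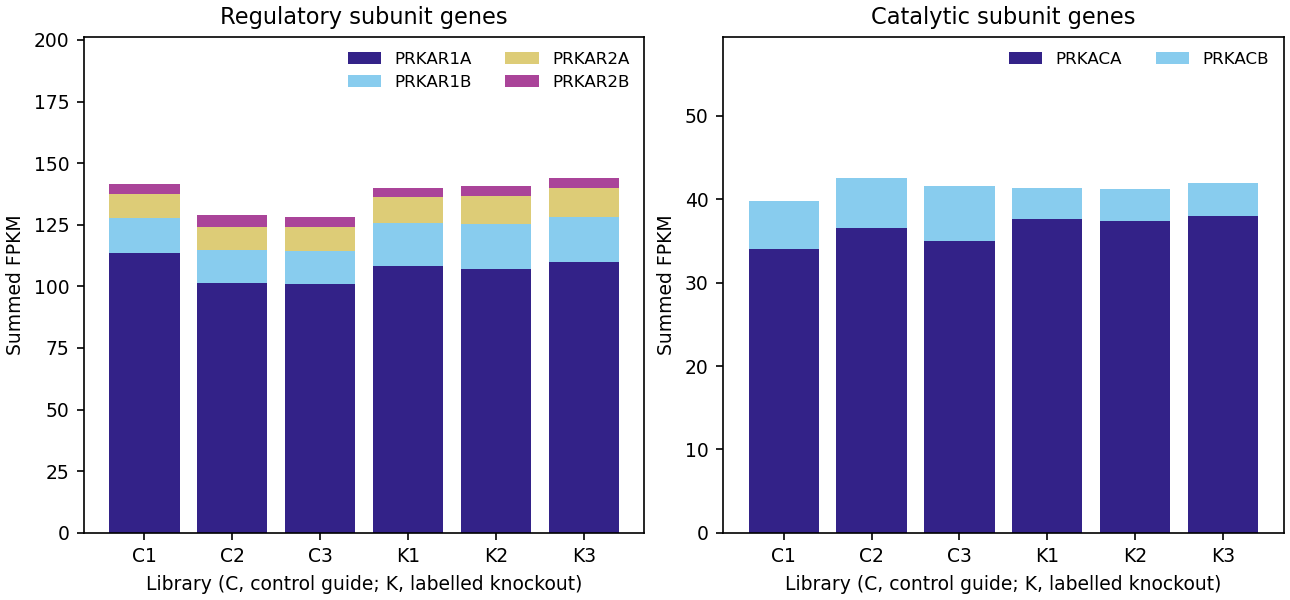
Summed FPKM of the 4 regulatory and 2 catalytic PKA subunit genes in each library, stacked by gene, with C1 to C3 for control and K1 to K3 for knockout-labelled libraries. PRKAR1A fills over 76% of the regulatory sum in every library, and the PRKACB share of the catalytic sum is smaller in K1 to K3.

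Among adenylyl cyclase genes, which make cAMP, and G protein alpha subunit genes, 1 rose and 1 fell of 8 tested (median difference 0.073). ADCY7 fell from 5.46 ± 0.698 to 3.82 ± 0.521 FPKM (difference -0.42, limma adjusted p = 0.0145). GNAI2, the inhibitory G protein subunit gene, rose by 0.10, a call lost without control library 1, 2 or 3 or knockout-labelled library 1 or 2, with the replicate block and with no variance trend. Its difference was 0.17, and passed, with the GC and length trend removed. GNAS, the stimulatory subunit gene, stood at 357 ± 5.33 and 373 ± 20.7 FPKM and did not pass (difference 0.064), but it passed once GC and length were corrected for (0.16) and without knockout-labelled library 1 (0.11). Of 4 tested cAMP phosphodiesterase genes 2 fell (median difference -0.19), PDE8A from 21.6 ± 0.777 to 17.7 ± 0.775 FPKM and PDE4D by 0.36 on the log2 scale, the latter without a call when control library 1 was left out (-0.32) or under quantile normalization (-0.23). Of the other cAMP effectors 1 of 5 had a row and 0 were tested.

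Among CREB, its coactivators and the SIK kinases that restrain them, 2 rose and 2 fell of 10 (median difference -0.0019). CRTC1, a CREB coactivator gene, fell from 3.27 ± 0.0854 to 1.67 ± 0.0801 FPKM (difference -0.68, limma adjusted p = 0.000208), and the CREB relative ATF1 fell by 0.25. The coactivator gene CREBBP rose by 0.27 and the kinase gene SIK2 by 0.31.

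Of 13 tested genes that cAMP induces through CREB, 8 fell and 2 rose, with a median difference of -0.43. The list holds immediate early genes that other pathways, such as ERK and SRF, also induce. FOS went from 55.1 ± 0.259 to 8.41 ± 0.0257 FPKM, a difference of -2.58. The differences of FOSB, DUSP1 and EGR1 were -2.54, -1.07 and -1.02, and all 4 fell. The nuclear receptor genes NR4A1 (15.1 ± 2.27 to 21.7 ± 3.58 FPKM) and NR4A2 (2.03 ± 0.135 to 2.98 ± 0.264 FPKM) were the 2 that rose, and the call of NR4A1 was lost without control library 1 or knockout-labelled library 1 or 2.

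Of 11 tested genes of proteins that AKAP12 scaffolds, 2 rose and 4 fell (median difference -0.074). The cyclin D1 gene CCND1, whose protein AKAP12 can hold in the cytoplasm, rose from 106 ± 0.821 to 131 ± 2.71 FPKM (difference 0.31, limma adjusted p = 0.000156). B4GALT1, a galactosyltransferase gene, fell from 39.0 ± 0.73 to 28.2 ± 0.358 FPKM. The protein kinase C genes PRKCZ and PRKCD fell by 0.33 and 0.21, and the kinase gene SRC by 0.18. With the GC and length trend removed the calls of PRKCD (-0.10) and SRC (-0.099) were lost, and the PRKCZ difference, still called, was -0.16.

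Among 16 genes of proteins bound by the other AKAPs 3 rose and 3 fell (median difference 0.046). The calcineurin catalytic genes PPP3CB (27.1 ± 0.783 to 20.04 ± 0.911 FPKM) and PPP3CA (6.39 ± 0.14 to 4.55 ± 0.434 FPKM) fell. MCM2, a subunit of the replicative helicase, rose from 56.8 ± 1.46 to 80.4 ± 0.915 FPKM, and the condensin gene NCAPD2 rose by 0.31 and the phosphatase gene PPP1CC by 0.20. RHOA, the GTPase gene, fell by 0.12, but its difference did not pass under quantile normalization (0.012), nor once GC and length were corrected for (-0.060).

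**Figure D5:**
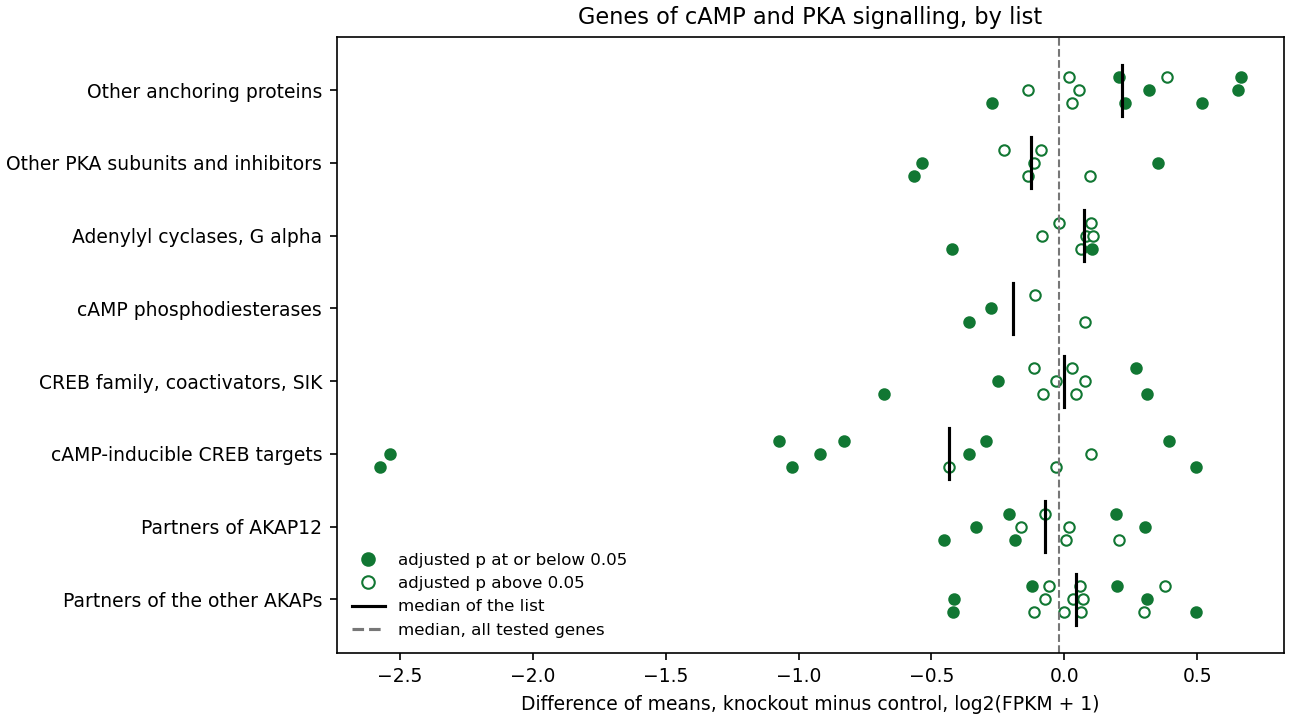
Difference between groups for each tested gene of 8 lists of cAMP and PKA signalling, with filled points at adjusted p of at most 0.05, a black bar at each list's median and a dashed line at the median of all tested genes (-0.018). The list of cAMP-inducible CREB targets reaches furthest down, with FOS and FOSB near -2.5, and the other anchoring proteins have the highest median (0.22).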

How the data were processed

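RNA of 6 HCT15 libraries was measured, 3 per group, grouped by title. The authors deposited FPKM, per the file headers, and HISAT2 2.2.1, StringTie 2.0.4 and hg38 are named in the submitters' processing notes. Settings, annotation and strand use: not given in the sources used here. Depth is unknown: at most 0.93% of ratios of values below 0.5 FPKM fell in any window 0.1% wide, so whole reads were not recovered.

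Rows averaging 1 FPKM or more entered limma 3.58.1 (R 4.3.3) on log2(FPKM + 1), with 2 groups, a variance trend and Benjamini-Hochberg adjustment over 11451 genes. This scale understates changes of low genes. The fit was tested on simulated data. The members, lists and tests were chosen with earlier results of these data known.

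Named genes were all members, RBM15, up to 4 called genes per list with the largest difference (in a list with no call, the 2 most abundant), the 5 genes nearest AKAP12 and its tested neighbours. AKAP7, AKAP17A, ACBD3, NR4A1, NR4A2, SRC, PPP1CC, RHOA, PRKACA, GNAS, the E-box and the markers were named after their values were seen. Alternatives were pseudocount, filter, scaling, variance trend, replicate block, GC and length trend, and leaving out each library. Coordinates are from GENCODE 29 and sequences from RefSeq (GRCh38.p14). Protein sequences were not used here, and 1 gene counted in the list of AKAP12 partners is not reported here by name.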

Additional observations from a re-analysis of the deposited data

How the results depend on the processing

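The AKAP12 difference, around which the set was chosen, lay between 1.33 (GC and length trend removed) and 1.57 (pseudocount of 0.1) over the 15 alternatives. The number of the 10 genes that rose, 5 of 10, lay between 4 and 6. The number that fell, 0, became 1 with the GC and length trend removed (AKAP9) and lay between 0 and 1 when each library was left out in turn (AKAP8L without knockout-labelled library 1, AKAP9 without knockout-labelled library 3). Over 63 genes and these alternatives, 877 of 930 values kept their direction and side of the threshold, 33 lost a call, 18 gained one and 2 reversed: AKAP8L (0.065, GC and length trend removed) and RHOA (0.012, quantile normalization). The causes were not tested. Raising the filter to 5 FPKM left AKAP13 untested. Deviations of same-numbered libraries correlated at -0.035, -0.037 and 4.54e-05, so no shared effect of the replicate number was seen. Each library correlated best with one of another number, at 0.054 at most. Whether the libraries were made in pairs cannot be told from such small values. With the replicate number as a block, 5782 genes were called against 6245, 4 of the 10 genes rose, and 39 genes of the 9 lists were called as without it. Depth is unknown, so the noise from read numbers could not be told apart from the rest of the spread among 3 libraries per group.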
